A study of Mus musculus with 10 samples.

Results

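Myc and the proteins that share its dimer partner Max form a network of transcription factors. Here 8 genes of that network (Myc, Mycn, Mycl, Max, Mga, Mnt, Mxd1 and Mxi1) were followed in a map of N6-methyladenosine (m6A), the commonest internal base modification of messenger RNA, in mouse hypothalamic neural progenitor cells. A peak, an interval in which antibody against m6A pulled down more fragments than the input predicts, was given to a gene if their overlap was at least 50% of the shorter of the peak and the gene's RefSeq span on GRCm38.p6. Where both strands had peaks, the strand with more reads of the immunoprecipitate (IP) was kept. By this rule 7 of the 8 genes held 18 of the 21195 deposited peaks, and Mnt held 0.

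The cells came from the hypothalamus of embryos at stage E14.5 whose Mettl14 gene, a subunit of the m6A writer complex, was flanked by loxP sites, and grew as adherent cultures with FGF2 and EGF (20 ng/ml each). Lentivirus with EGFP alone gave the control and lentivirus with EGFP and Cre recombinase the Mettl14 knockout. Both groups thus carried the floxed allele, a virus and EGFP. Cells of both groups were incubated with virus for 24 h, and EGFP-positive cells were sorted after 72 h. The series lists 4 control and 4 knockout IP libraries and 1 input library of each genotype. The peak table has 1 input and 1 IP column that name no library or genotype, so knockout and control were not compared and no value below has a replicate error. Whether the columns hold control libraries, knockout libraries or both is unknown.

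Myc proteins are basic helix-loop-helix leucine zipper factors that bind DNA as dimers with Max, mostly at the E-box CACGTG, and drive growth and proliferation genes. Mxd1, Mxi1, Mnt and Mga compete for the same partner and repress. Mycn is the form best known for expanding neural progenitors in the embryonic brain, and Myc mRNA is a textbook example of a short-lived message whose decay is set by proteins that bind it.

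The share of network genes with a peak was 7 of 8, and 44.2% of all RefSeq protein-coding genes had a peak by the same rule. Those 21900 genes were counted whether or not these cells express them. The genes differed widely in the strength of their peaks: compared at the strongest peak of each, Mga and Mycn stood highest, Max and Mycl were intermediate and Myc was lowest. Strength is given in 2 ways, as IP over input reads, with an exact Clopper-Pearson 95% interval that covers counting error only, and as log2 enrichment, the fold change column of the authors' deposited table, which was taken to compare IP with input. Over all peaks the reads came to 26633390 input and 72308582 IP, and the median peak had 466 input reads, 864 IP reads and a read ratio of 2.35. Of the 18 network peaks, 14 had a ratio whose interval lay above 1, against 82.8% of all peaks, and 3 had one wholly below 1, against 7.11% of all peaks. The median log2 enrichment in the authors' deposited table was 3.18 for the 18 peaks and 3.06 for all peaks, and 10 of the 18 lay above the latter, as did 50% of all peaks by definition. All 18 had an adjusted p under 0.05 in the authors' deposited table, as did 100% of all peaks to 3 significant digits, so this p does not separate them from other peaks.

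**Figure D1:**
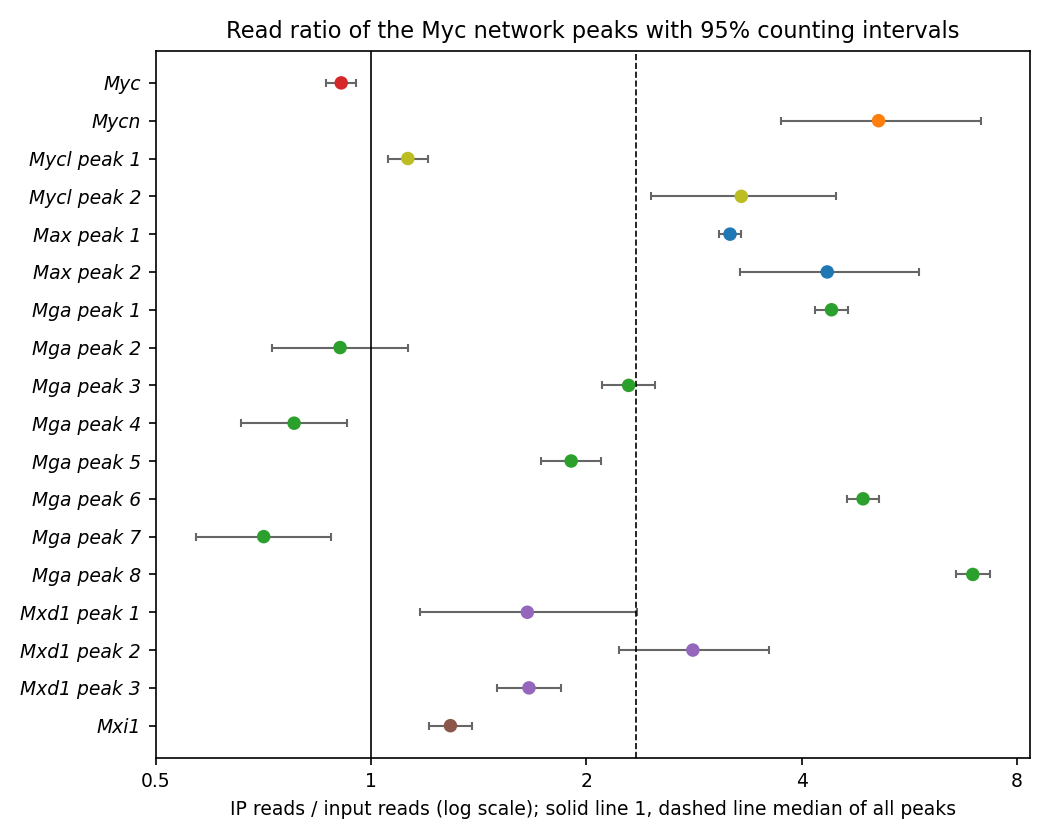
IP over input reads of each of the 18 network peaks on a log scale (points) with exact 95% counting intervals (bars), with peaks numbered from 5' to 3' within a gene. The solid line marks 1 and the dashed line the median of all peaks, 2.35. Mga peak 8 has the highest ratio, 6.94, and Mga peak 7 the lowest, 0.708.

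**Figure D2:**
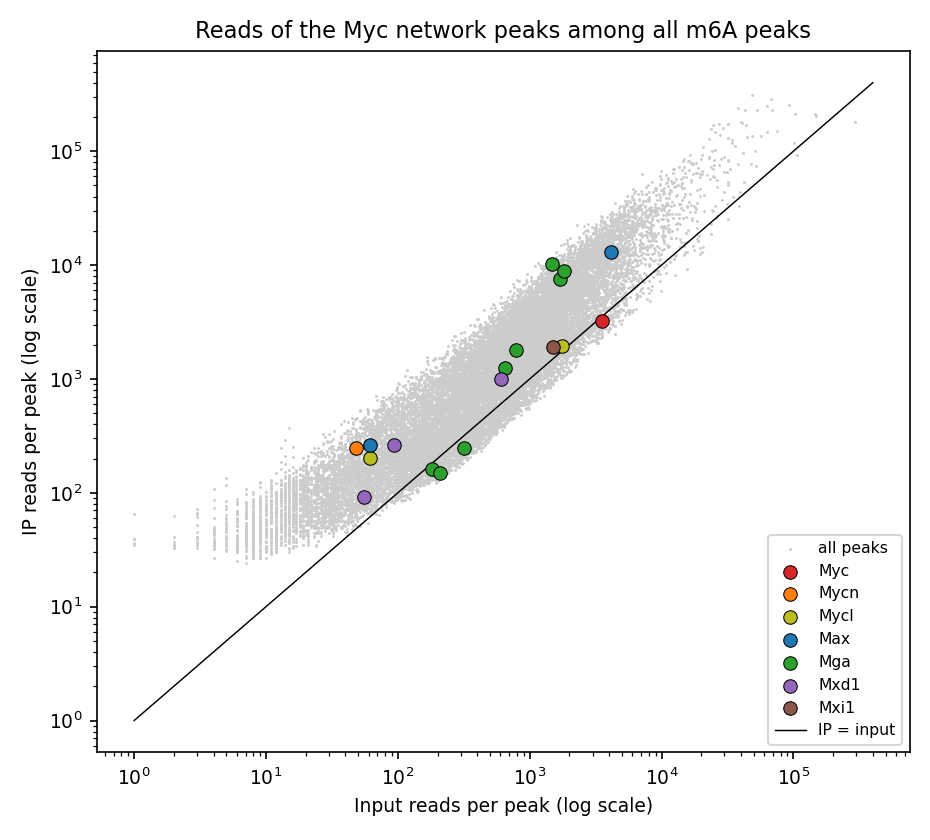
Input reads (x) against IP reads (y) per peak on log scales, for all peaks with at least 1 input read (grey) and for the network peaks (coloured by gene). Network peaks range from 48 to 4107 input reads, and 4 of 18 lie below the line of equal reads, as do 11.3% of all peaks.

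Myc, the founding member of the family, had a single, well-covered and weak peak. It lay at chr15:61988141-61990374 on the plus strand, with 3543 input and 3220 IP reads (ratio 0.909, 95% interval 0.866 to 0.954). Its log2 enrichment in the authors' deposited table was 1.57, higher than only 4.41% of all peaks, while its input reads were higher than those of 92.9% of peaks. The peak covered the 3' part of the gene, from 2800 bases after the start of the RefSeq span to 13 bases past its end. Among the 9674 protein-coding genes with a peak, the strongest peak was weaker than that of Myc in 2.41%, and the median over genes was 3.51 in the authors' deposited table.

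Mycn, the paralogue of the embryonic nervous system, had a strong peak on few reads. The peak at chr12:12936443-12937142 (minus strand, 700 bases) had 48 input and 246 IP reads (ratio 5.13, 95% interval 3.75 to 7.14). Its log2 enrichment reached 4.13 by the authors' deposited table, above 83.7% of all peaks. The Mycn and Myc ratios stood 5.64-fold apart, and their counting intervals did not overlap. The Mycn peak ended 350 bases before the 3' end of the gene.

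Mycl, the third paralogue, held 2 unlike peaks. The peak near the 5' end, at chr4:122996084-122996608, had 1743 input and 1963 IP reads (ratio 1.13, 95% interval 1.06 to 1.20). Its log2 enrichment of 0.72 (authors' deposited table) was higher than only 0.297% of all peaks, and its adjusted p there, 0.00125, was the largest of the 18. The other, at chr4:122999389-123002485, had 61 input and 201 IP reads, at a ratio of 3.30 (95% interval 2.46 to 4.46) and log2 enrichment of 3.28 (authors' deposited table). It reached to 5 bases from the 3' end. The 3' peak was thus the stronger by both measures, with intervals that did not overlap, while 90.7% of the Mycl IP reads lay in the 5' peak. Summed over both peaks the Mycl ratio was 1.20 (95% interval 1.13 to 1.28).

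Max, the partner shared by the other factors followed here, had 2 peaks of like log2 enrichment on the minus strand. The longer, at chr12:76939493-76952589, spanned 13.1 kb and had 4107 input and 13049 IP reads (ratio 3.18, 95% interval 3.07 to 3.29). The other lay 749 bases further 3', at chr12:76937669-76938743, with 61 input and 265 IP reads and a ratio of 4.34 (95% interval 3.28 to 5.84). In the authors' deposited table their log2 enrichments were 3.55 and 3.64, above 66.2% and 69.1% of all peaks. By read ratio the peaks stood further apart, above 65.6% and 81.3% of all peaks, and their counting intervals overlapped only between 3.28 and 3.29. The long peak held 98.0% of the Max IP reads.

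Mga encodes a very large protein that binds Max and carries a T-box DNA-binding domain besides the helix-loop-helix, and it had the most peaks and the most IP reads of the network genes. It held 8 peaks, all on the plus strand of chromosome 2 (GRCm38.p6), and 57.6% of the 52435 IP reads in network peaks. Of protein-coding genes with a peak, 65, or 0.672%, had 8 or more. Mga is a long gene, with a span of 97.6 kb, and among the 1775 genes with a peak and a span at least as long 2.54% had 8 or more, with a median of 2. The threshold of 8 was taken from Mga itself.

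Strong and weak peaks were interspersed along Mga. Numbered from 5' to 3', peak 1 (chr2:119897228-119917483) had 1705 input and 7510 IP reads (ratio 4.40, 95% interval 4.18 to 4.65). Peak 6 (chr2:119946369-119958188) had 1833 and 8937, a ratio of 4.88 (95% interval 4.64 to 5.13). Peak 8 (chr2:119962099-119965291) had 1463 and 10156, a ratio of 6.94 (95% interval 6.57 to 7.34), the highest of the 18 network peaks. These 3 peaks held 88.1% of the Mga IP reads and 70.0% of its input reads. Their log2 enrichments of 4.78, 5.06 and 4.95 (authors' deposited table) were above 95.5%, 97.8% and 97.0% of all peaks.

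Peaks 3 and 5 were intermediate. Peak 3 had 783 input and 1795 IP reads (ratio 2.29, 95% interval 2.11 to 2.50), and peak 5 had 654 and 1246, a ratio of 1.91 (95% interval 1.73 to 2.10). Their log2 enrichments were 3.65 and 3.42 (authors' deposited table). The other 3 had fewer IP than input reads: 163 against 180 in peak 2, 246 against 315 in peak 4 and 148 against 209 in peak 7. Their ratios were 0.906, 0.781 and 0.708, and the interval of peak 2 (0.728 to 1.13) held 1 while those of peaks 4 (0.658 to 0.926) and 7 (0.570 to 0.878) lay below it. Even so their log2 enrichments in the authors' deposited table were 2.45, 2.33 and 2.40. Peaks of unlike strength stood close together, with 50 bases between peaks 3 and 4 (intermediate and weak) and 50 between peaks 5 and 6 (intermediate and strong). Between peaks 7 and 8 (weak and strong) there were 175.

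**Figure D3:**
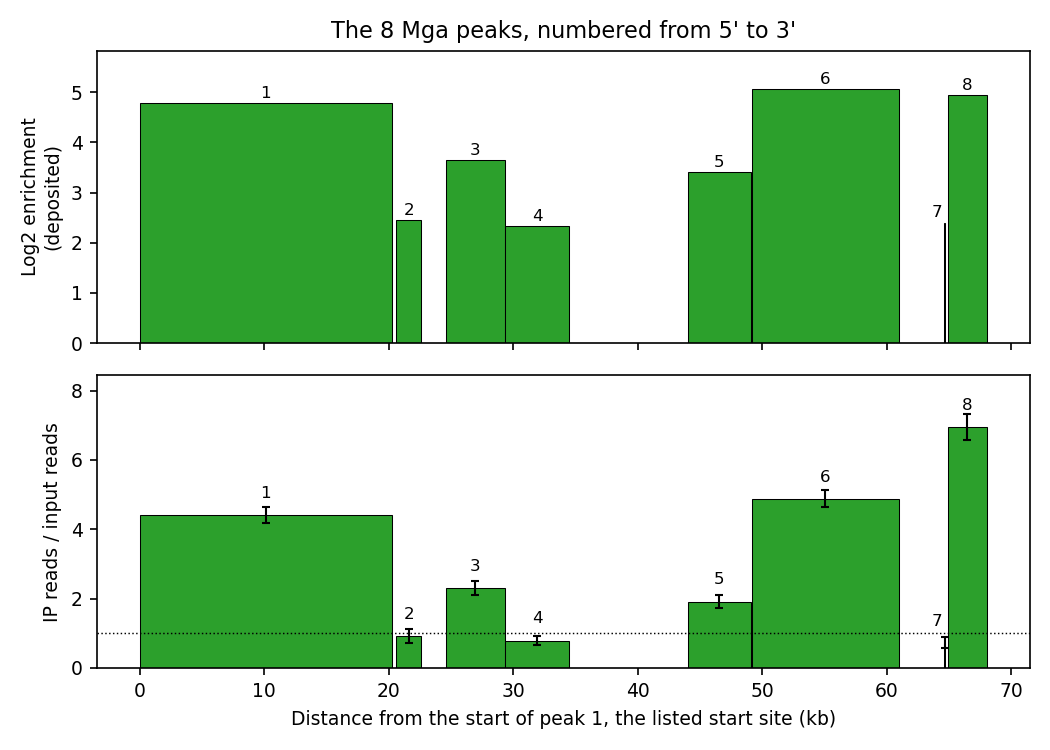
The 8 Mga peaks by distance from the start of peak 1 in kb (bar width is the peak's span). The upper panel gives log2 enrichment (authors' deposited table) and the lower panel IP over input reads with exact 95% counting intervals and a dotted line at 1. Peaks 1, 6 and 8 stand highest in both panels, and peaks 2, 4 and 7 have ratios under 1.

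Mga peak 1 began at a listed start site. Its first base, 119897228, is the start site given for Mga in the RefSeq promoter table (GRCm38.p6), although the RefSeq span begins 24725 bases further upstream. A stretch before this site and one inside the peak are shown because the peak's edge falls there. The upstream line ends at the base before the start site, chr2:119897128-119897227 on the plus strand, and the other gives bases 21 to 50 counted from that site, chr2:119897248-119897277, with the GGAC letters, part of the sequence in which m6A is usually written, in capitals.
Mga upstream: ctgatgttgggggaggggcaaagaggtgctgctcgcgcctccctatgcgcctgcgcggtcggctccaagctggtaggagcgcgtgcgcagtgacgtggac
Mga transcript start: cttcagctgaagcGGACacacggtgtgcga
The GGAC in capitals stood at bases 34 to 37 from that site. The upstream line also ends in ggac, directly before the site, left in lower case because that line was not searched. Whether those upstream bases are transcribed was not tested. GGAC was searched on the transcribed strand in the first 50 transcribed bases, and 18.9% of all 32851 listed start sites held it. Of the network genes with a listed start site, Mga, Mycn and Mxi1 held it, in 3 of 9 windows. Peak 1 spans 20.3 kb as a single block, so the methylated bases within it were not located.

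Mxd1 and Mxi1, which encode repressors of the Mad group that replace Myc on Max, had modest peaks. Mxd1 had 3 peaks on the minus strand of chromosome 6. From 5' to 3' they were chr6:86650292-86653086 with 55 input and 91 IP reads, chr6:86649992-86650266 with 94 and 265, and chr6:86648967-86649141 with 606 and 1008. Their ratios were 1.65 (95% interval 1.17 to 2.36), 2.82 (2.22 to 3.61) and 1.66 (1.50 to 1.84). The middle peak was the strongest at 3.08 in the authors' deposited table, with 2.20 and 2.50 on its sides. Its interval overlapped that of the peak on its 5' side and not that of the 3' peak, which held 73.9% of the Mxd1 IP reads.

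Mxi1 had 1 peak, at chr19:53370127-53372262 on the plus strand, with 1491 input and 1926 IP reads and a ratio of 1.29 (95% interval 1.21 to 1.38). Its log2 enrichment in the authors' deposited table was 2.32, above 23.3% of all peaks. The peak covered 3.38% of the 63.2 kb span and ended 1031 bases before the 3' end.

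Mnt, a repressor that also pairs with Max and is present in most cell types, had no peak under any overlap. The nearest peaks lay 12848 bases on one side and 53865 on the other, in Mettl16 and Tsr1. The table lists reads only within peaks, so the level of Mnt RNA in these cells was unknown, and a missing peak cannot be told apart from a transcript with too few reads.

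Summed over their peaks, the genes fell in the order Mycn 5.13, Mga 4.23, Max 3.19, Mxd1 1.81, Mxi1 1.29, Mycl 1.20 and Myc 0.909 in IP over input reads. Neighbours with overlapping intervals were Mycn (3.75 to 7.14) and Mga (4.12 to 4.34), and Mxi1 (1.21 to 1.38) and Mycl (1.13 to 1.28). The intervals of the other neighbouring pairs did not overlap. Over all peaks together the ratio was 2.71, so Mycn, Mga and Max stood above it and the other 4 below. A change of scale that sets this overall ratio to 1 puts Mxd1 at 0.665, Mxi1 at 0.476 and Mycl at 0.442. The order of the genes is the same under it, and their side of 1 is not. Without the peaks over 10000 bases, Max stood at 4.34 (95% interval 3.28 to 5.84, 61 input reads) and Mga at 3.82 (3.68 to 3.96), in the opposite order and with overlapping intervals, so the order of Mga and Max rests on the long peaks.

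The midpoint lay past the centre of the RefSeq span, on its 3' side, for 15 of 18 peaks, against 69% of all peaks within protein-coding genes. It was in the final bin, of 10 across the span, for 5 of 18 peaks, in Max, Mga (peaks 7 and 8), Mxd1 and Mxi1, against 36.9% of all such peaks. With 5 bins the last held 8 of 18, against 49.7%. No network peak had its midpoint in the first of 10 bins, where 9.34% of all peaks lay. The spans covered by peaks ran from 3.38% of Mxi1 to 56.6% of Max. Peaks are single blocks that include introns, and 3 of the 18 (in Max and Mga) spanned over 10000 bases, against 13% of all peaks. Exon and UTR annotation was not used here. All 18 peaks carried a single gene identifier, 17 lay wholly inside their gene, and the overlap of the Myc peak was 99.4%, so none was near the 50% threshold. Of the 7 network genes with a listed start site, 6 had a peak on its strand, against 43.5% of protein-coding genes with one. Among genes with both a start site and a peak, the strands were the same in 6 of 6, against 94.1%. Myc is not in that table.

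**Figure D4:**
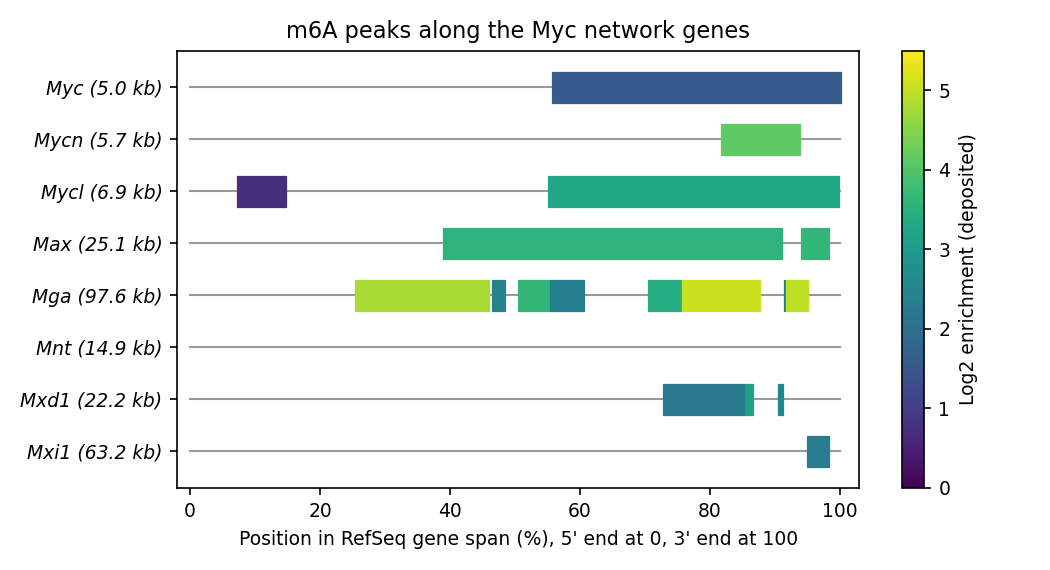
Position of each peak along the RefSeq span of its gene in percent, with the 5' end at 0 and the 3' end at 100 (grey line: gene span, with its length in kb). Blocks are peaks drawn to scale and coloured by log2 enrichment (authors' deposited table). Mga peaks 1, 6 and 8 are the brightest, at 4.78 to 5.06, the 5' peak of Mycl is the darkest, at 0.72, and Mnt has none.

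The E-box to which Myc and Max bind occurs in promoters of the network itself. CACGTG, which reads the same on both strands, was searched from 250 bases before to 50 after each listed start site. It was found in 2 of 9 windows of 7 network genes, and in 7.15% of all 32851 windows. The Max motif spans the start site (bases -3 to 3) on the minus strand, chr12:76962237-76962266, and the Mnt motif lies at bases -123 to -118 on the plus strand, chr11:74830789-74830818. Both are shown with the E-box in capitals, from RefSeq (GRCm38.p6), since they belong to the shared partner and to the gene without a peak. The RefSeq spans of both genes begin upstream of these listed start sites, at 76962323 in Max and at 74830806, inside the stretch shown, in Mnt.
Max start site: cgcggtgagcccggtCACGTGttagggggc
Mnt promoter: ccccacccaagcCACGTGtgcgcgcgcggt
No binding of Myc or Max was measured in this series.

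Genes around the network were read from 5 lists. The other network members Mxd3, Mxd4, Mlx, Mlxip and Mlxipl had a peak in 1 of 5, Mlxip, against 44.2% of protein-coding genes. Mlxip, a glucose-responsive factor that pairs with Mlx, had 680 input and 2384 IP reads (ratio 3.51, 95% interval 3.22 to 3.82) and 3.35 in the authors' deposited table. Mxd4, a further Mad repressor, missed the overlap rule: a peak of 4445 input and 8688 IP reads covers its 3' end, with 30.1% of the peak inside the RefSeq span and 2.45 in the authors' deposited table.

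Cofactors of Myc and its rivals had a peak in 13 of 17 genes, against 44.2% of protein-coding genes, with Ruvbl1, Wdr5, Sin3b and Hdac1 lacking one. The histone deacetylase Hdac2 had 20 input and 152 IP reads (ratio 7.60, 95% interval 4.75 to 12.8) and 5.29 in the authors' deposited table. The repressor E2f6, found with Mga in a polycomb complex, had 11 and 63 (ratio 5.73, 95% interval 2.99 to 12.1) and 4.26 in the authors' deposited table. Its complex partners Pcgf6 and L3mbtl2 had ratios of 1.99 (95% interval 1.94 to 2.05) and 1.38 (95% interval 1.30 to 1.48) at their strongest peaks. That L3mbtl2 peak was given to 2 protein-coding genes by the overlap rule, so its reads may not all be those of L3mbtl2. The corepressor Ncor1 stood at 4.31 in the authors' deposited table, but that peak lies on the strand opposite to its listed start site. On its own strand Ncor1 had 6 peaks, the strongest at 3.90 in the authors' deposited table with 8 input and 29 IP reads.

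Regulators of Myc protein stability had a peak in 8 of 10 genes, against 44.2% of protein-coding genes. Ppp2r5a, a phosphatase subunit, had 27 input and 175 IP reads and the ubiquitin ligase subunit Skp2 56 and 350, with 4.95 and 4.38 in the authors' deposited table. Fbxo28 had 1912 and 9284 reads (ratio 4.86, 95% interval 4.62 to 5.10) and 4.14 in the authors' deposited table. Fbxw7, the ligase subunit that marks Myc for degradation, was given by the strand rule an opposite-strand peak of 1266466 bases that covers several genes. On its own strand it had 5 peaks, the strongest with 540 input and 2139 IP reads (ratio 3.96, 95% interval 3.60 to 4.36) and 4.62 in the authors' deposited table.

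Proteins known to bind Myc mRNA had a peak in 8 of 9 genes, against 44.2% of protein-coding genes, and Igf2bp1 lacked one. Syncrip and Ybx1 had log2 enrichments of 3.51 and 3.41 in the authors' deposited table, with 2563 and 1839 input reads. By reads they stood at ratios of 1.48 (95% interval 1.41 to 1.56) and 2.61 (95% interval 2.47 to 2.75). The m6A-binding proteins Igf2bp2 and Igf2bp3 had 46 input and 68 IP reads and 744 and 488 at their strongest peaks. The ratios were 1.48 (95% interval 1.002 to 2.20) and 0.656 (95% interval 0.584 to 0.736). In the authors' deposited table the log2 enrichments of these 2 peaks were 3.29 and 1.34, above 57.8% and 2.40% of all peaks. Well-known targets of Myc had a peak in 9 of 18 genes, close to the 44.2% of all protein-coding genes. Nop56 and Ncl, which act in the nucleolus, had log2 enrichments of 4.66 (10 input reads) and 4.62 (1357 input reads) in the authors' deposited table, and Pa2g4 had 3.52. Odc1, Ldha, Cdk4, Nme1, Tfap4, Bop1, Fbl, Cad and Shmt2 had none. The median of the strongest peaks was 3.35, 3.41, 2.87, 3.31 and 3.26 in the authors' deposited table for the 5 lists in this order, all below the 3.51 of all protein-coding genes with a peak. The first is the value of Mlxip alone, and the 2.87 of the stability list, which includes the opposite-strand peak given to Fbxw7, was 3.37 with own-strand peaks. For the 7 network genes it was 3.28.

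**Figure D5:**
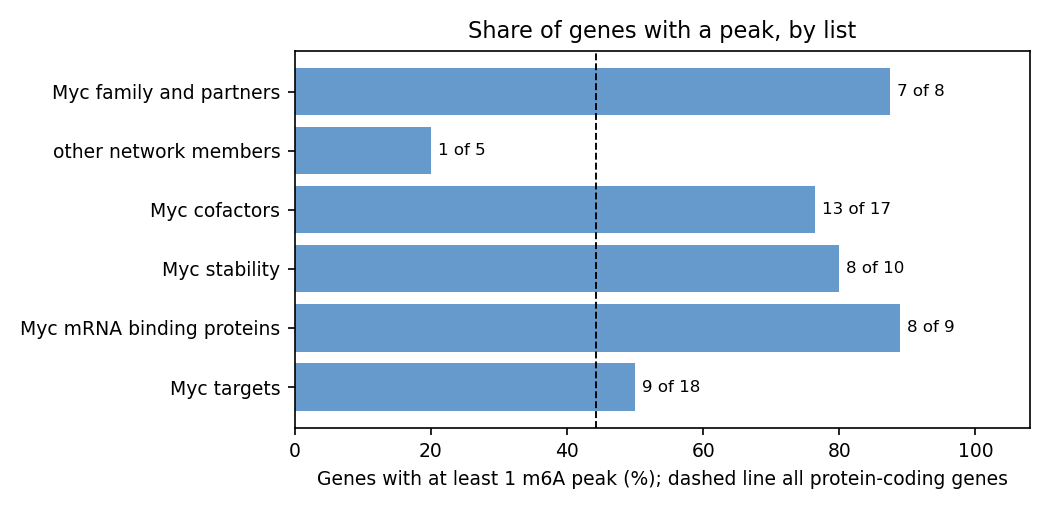
Percent of genes with at least 1 peak (bars, from 0) in the Myc network and in 5 lists of related genes, with counts beside the bars. The dashed line is the share of all protein-coding genes, 44.2%. Other network members stand at 1 of 5, below the line, and Myc targets at 9 of 18, near it.

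The labelled cell type was read through peaks only. Against the 44.2% of all protein-coding genes with a peak, progenitor markers had one in 6 of 10 genes. These were Sox2, Nes, Pax6, Notch1, Nr2e1 and Hes1, with summed input reads from 10 in Sox2 to 4405 in Nr2e1. Vim, Hes5, Fabp7 and Msi1 had none. Hypothalamic markers had a peak in 4 of 6 (Nkx2-1, Six3, Lhx2 and Tbx3, 1207 to 24926 input reads), and Rax and Otp had none. Of markers of other types, neuronal genes had a peak in 3 of 5 (91 to 35021 input reads), astrocyte genes in 2 of 4 (8922 and 22730) and oligodendrocyte genes in 3 of 5 (41 to 43210). None of the 5 microglial and blood or 5 vascular and mesenchymal markers had one. A marker without a peak may be unexpressed or unmethylated, and the part of any cell type in the network values was not tested.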

How the data were processed

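Tools listed per the submitters' processing notes are STAR 2.5.2a, Trimmomatic 0.32 and bcl2fastq 2.17.1.14, with the builds GRCm38.p6 and GRCh38.p13. No source used here names the peak caller or counter. The deposited counts are whole numbers of input and IP reads per peak, per the file headers. How libraries were combined in them (summed, or averaged and rounded) is unknown, and intervals take them as counts. Depth per library is unknown. The log2 fold changes, p-values and scores are those of the authors' deposited table, whose normalization and test no source used here states. A peak list with the same intervals, strands and scores (tolerance 1e-06) in all 21195 rows was deposited too.

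Starts were made 1-based. Peaks were matched to RefSeq spans of GRCm38.p6 by position, since deposited identifiers are not in that table, and a peak may count for several overlapping genes. Read ratios have exact 95% intervals. They cover counting error only, as PCR copies were not told apart by molecular identifiers. No test between groups was possible, and none was run between genes. Python 3.11.15, pandas 2.3.3 and scipy 1.17.1 were used, and the matching was tested on simulated data. Members, lists and rules were chosen with earlier results of these data known. Named were all members and the 3 genes of each list with the highest log2 fold change, and others, such as Fbxw7, Mxd4 and the partners of E2f6, were chosen after their values were seen. Some list genes are not reported here.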

Additional observations from a re-analysis of the deposited data

How the results depend on the processing

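No paired analysis was possible because the deposited columns carry no library, genotype or replicate number. Leaving out replicates and the replicate block were not run for the same reason. The count of 7 genes and 18 peaks was the same with any overlap, with 50% of the peak inside the gene, with both strands, with at least 10 input reads and with single identifiers. Keeping peaks stronger than the median of the authors' deposited table left 10 peaks in 5 genes. Keeping peaks of at most 10000 bases left 15 peaks in 7 genes. With 5 bins of the span in place of 10 the last held 8 peaks in place of 5. Any overlap gave 2 in place of 1 of the other network members. The median over genes of the strongest log2 enrichment (authors' deposited table), 3.28, was 2.59 when a gene's peaks were averaged and 2.50 with the peak of most IP reads, and for Mycl that peak had 0.72. The order of genes by strongest peak also depended on this choice. With averaged peaks Mga went from 5.06 to 3.63 (authors' deposited table), below Mycn at 4.13 and close to Max at 3.59. Mycl went from 3.28 to 2.00 (authors' deposited table), below Mxd1 at 2.59 and Mxi1 at 2.32, and Myc stayed lowest at 1.57. Scaling input and IP to equal totals turned the summed ratios of Mycl (0.442), Mxd1 (0.665) and Mxi1 (0.476) below 1. A pseudocount of 5 in place of 0.5 changed no direction of the 18 log2 read ratios. The strand of the listed start site (17 peaks in 6 genes, as Myc is not listed) and peaks of 1 protein-coding gene were alternatives chosen after seeing the data. The latter left 7 members, 11 in place of 13 cofactors and 7 in place of 8 stability genes, against 41.3% of protein-coding genes, and the other 3 lists kept their counts. Of the 18 peaks 5, in Mycn, Mycl, Max and Mxd1, had fewer than 100 input reads, and Mycn has no other peak.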

Other observations

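The log2 enrichment of the authors' deposited table exceeded the log2 ratio of the reads by different amounts in different network genes. The excess was 2.16 to 2.90 for the 8 Mga peaks and 0.55 for the 5' peak of Mycl, and 1.48 to 1.95 for the other 9 peaks. The median excess over all 21195 peaks was 1.88. The 3 Mga peaks with fewer IP than input reads had the excesses 2.59, 2.69 and 2.90, so that they rank above 23.8% to 28.1% of all peaks by the authors' deposited table and above 1.92% to 7.91% by reads. The 5' peak of Mycl went the other way, above 0.297% by the authors' deposited table and above 16.0% by reads. Across all peaks Spearman's correlation of the excess was 0.193 with peak span and 0.0767 with input reads. These are descriptions across peaks, which share libraries and are not replicates.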
